A study of Mus musculus with 16 samples.

Results

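The genes described here are 10 members of the bone morphogenetic protein (BMP) pathway and the Id family, taken by symbol from tables of 26239 genes. They are Bmp4, Bmpr1a, Smad1, Smad5, Smad6, Smad7, Id1, Id2, Id3 and Id4, and all 10 were found and tested in all 6 comparisons. They were read in wild-type E14Tg2A cells, an established mouse embryonic stem cell line, after 4 or 6 days with 100, 150 or 200 µM NiCl2, a soluble nickel salt, and in untreated cells of the same day. All groups, controls included, grew in DMEM with fetal bovine serum and the cytokine LIF, were passaged every 2 days and received fresh nickel, where treated, after each passage. Each of the 8 groups had 2 RNA-seq libraries, 16 in all, and the labels do not say whether these came from separate cultures, so p-values may measure technical spread only. The tables hold 1 RPKM per group (reads per kilobase of transcript per M, or mega, mapped reads), 1 log2 fold change of nickel over control, 1 p-value and 1 adjusted p-value per gene, and no value per library. A change was called at an adjusted p-value under 0.05 in the authors' deposited tables. Each log2 fold change is followed by a standard error worked back from its deposited p-value, and 95% intervals take that error as normal.

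BMP ligands such as BMP4 bind type I and type II receptor kinases, which phosphorylate SMAD1 and SMAD5. These enter the nucleus with SMAD4 and raise target genes, among them the Id genes and the inhibitory SMAD6 and SMAD7, which damp the signal. ID proteins have a helix-loop-helix but no DNA-binding region, and they hold E proteins and other basic helix-loop-helix factors off DNA. In mouse embryonic stem cells, BMPs, also those in serum, raise Id genes, and together with LIF this restrains neural differentiation.

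The cells carried the markers of their label. All 8 embryonic stem cell markers read (Pou5f1, Sox2, Nanog, Zfp42, Esrrb, Klf4, Tfcp2l1 and Dppa4) lay between 56.0 and 857 RPKM in the 8 groups. The summed RPKM of 6 primitive endoderm markers ran from 4.41 to 7.6 and that of 6 mesoderm and streak markers from 2 to 3.91. The 5 neural markers summed to between 28.5 and 40.1, most of it Tubb3, and the 5 fibroblast markers to between 4.71 and 11.3, most of it Thy1. Trophectoderm markers summed to 7.59 to 12.5 and primed epiblast markers to 18.3 to 28.6. Steps in the low RPKM values placed library depths between 34.0 and 76.8 M reads. In RNA from whole cultures, fewer cells that express a gene and less of its RNA per cell cannot be told apart.

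The 10 genes spanned a wide range of levels in untreated cells. By RPKM on day 4, Smad7 stood highest at 25.8, followed by Id1 at 23.4, Bmp4 at 14.9, Id2 at 12.9, Bmpr1a at 12.1, Id3 at 12, Smad5 at 7.47, Smad1 at 3.48, Smad6 at 1.32 and Id4 at 0.903. Day 6 kept Smad7, Id1 and Bmp4 at the top, at 25.3, 23.7 and 16.7 RPKM, and Smad5, Smad1, Smad6 and Id4 at the bottom. Between them the order of Id2 and Bmpr1a was exchanged. Whether neighbours in these orders differ could not be judged, because no spread between libraries is given. Id4 stayed under 1 RPKM in all 8 groups, at an estimated 71 to 238 reads per library, while Smad7 drew an estimated 5090 to 8269. In untreated cells, day 6 over day 4, the RPKM ratio was 0.842 for Id3, 0.837 for Id2, 1.01 for Id1 and 1.12 for Bmp4, with no test possible.

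**Figure D1:**
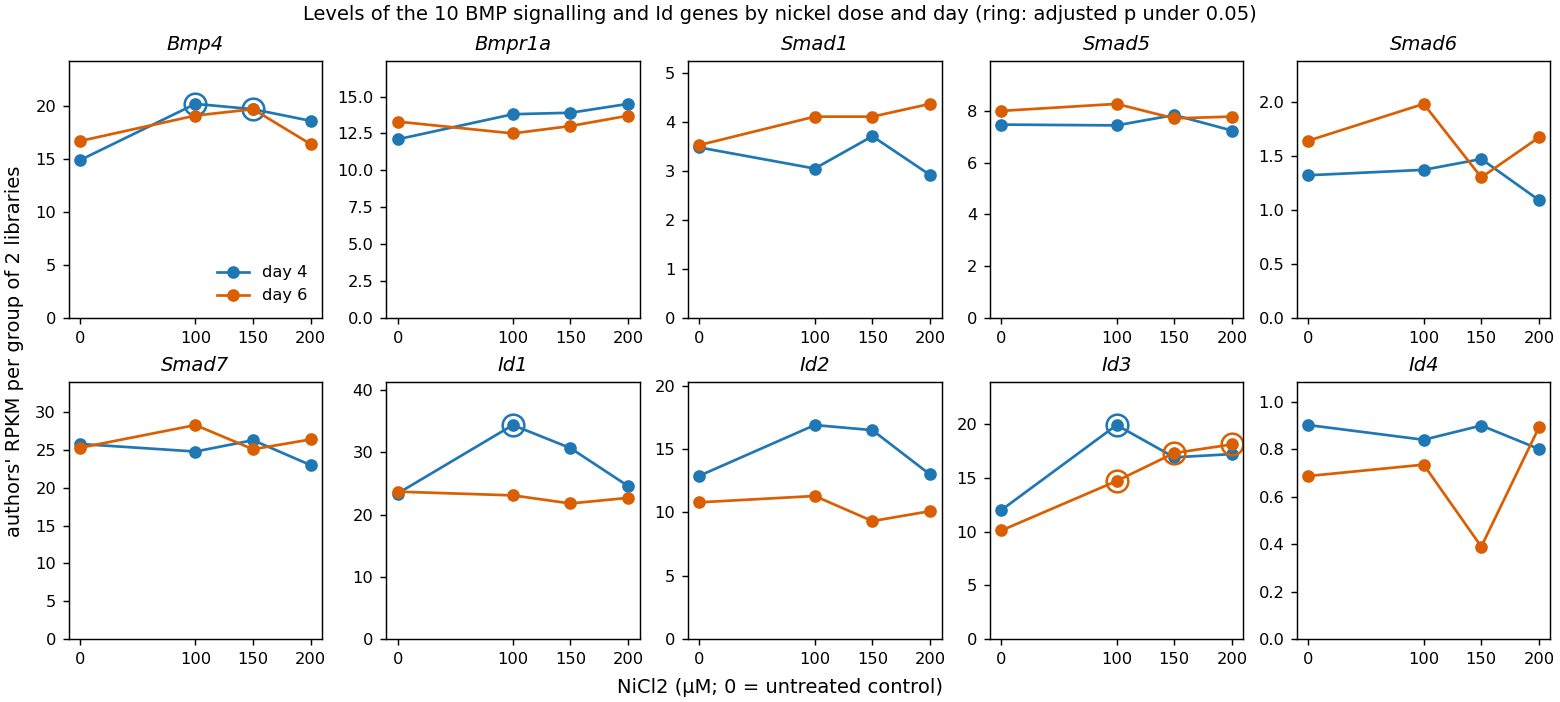
The authors' RPKM per group of 2 libraries (y axis, from 0) against NiCl2 dose in µM (x axis) for each of the 10 genes, day 4 in blue and day 6 in orange; a ring marks an adjusted p-value under 0.05 against the untreated control of that day. Id3 lies above its control at every dose on both days, Id1 peaks at 34.4 at 100 µM on day 4, and Smad5 and Smad7 stay near their controls.

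Id3 was the member that nickel raised most often, in 4 of 6 comparisons, and Bmp4 rose in 2 and Id1 in 1. No member fell in any comparison. At 100 µM on day 4, 3 of 10 members rose and 0 fell. In that comparison 1.04% of 19283 genes tested were called, 0.576% as higher, and 1.59% of the 12009 with at least 1 RPKM in either group were called. At 150 µM on day 4 Bmp4 alone among the members rose, 1 of 10. Of 19470 genes tested there, 6.75% were called, 3.44% as higher, and 10.1% of those with at least 1 RPKM. At 200 µM on day 4 the authors' test called 0 of 10 members (DESeq2 is among the tools named in their processing notes), and 3 had an unadjusted p under 0.05. Of 19480 genes tested, 7.92% were called, 4.14% as higher, and 11.6% of those with at least 1 RPKM.

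On day 6 Id3 alone among the members rose at each dose, 1 of 10 in each comparison. At 100 µM 2.83% of all genes tested were called, 1.62% as higher, and 4.54% of those with at least 1 RPKM. At 150 µM the shares were 4.34%, with 2.36% as higher, and 6.61% of those with at least 1 RPKM. At 200 µM they were 9.47%, with 4.99% as higher, and 13.4% of those with at least 1 RPKM. The members' share of 30.0% at 100 µM on day 4 thus lay above that of expressed genes, while 1 of 10 in the other comparisons with a call is a single gene and near the background. The members were chosen with earlier results of these data known, so these shares are a description only. The median log2 fold change of the members ran, in order of dose, through 0.16, 0.22 and 0.03 on day 4 and through 0.13, 0.04 and 0.05 on day 6, against -0.014 to 0.008 over all genes with at least 1 RPKM.

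Id3, at chr4:136143822-136145392 on the plus strand of GRCm38, encodes an inhibitor of E proteins. On day 4 its RPKM was 12 in untreated cells and 19.9, 16.9 and 17.2 at 100, 150 and 200 µM nickel. On day 6 it was 10.1 in untreated cells and 14.7, 17.3 and 18.1 with rising dose. All 6 nickel groups lay above both untreated groups. The doses of a day share a control, so the 6 comparisons are not independent. On day 6 the RPKM rose with the dose, while the fold change was the same at 150 and 200 µM. In the authors' deposited tables the log2 fold change of Id3 on day 4 was 0.77 ± 0.21, 0.53 ± 0.20 and 0.59 ± 0.29 with rising dose (adjusted p = 0.034, 0.073 and 0.22). On day 6 the authors' deposited tables gave 0.55 ± 0.17, 0.87 ± 0.21 and 0.87 ± 0.28 with rising dose (adjusted p = 0.033, 0.0022 and 0.023). The rise on day 6 was 1.46-fold at the lowest dose and 1.83-fold at the other two. Set among all expressed genes of each comparison, the log2 fold change of Id3 lay between the percentiles 92.2 and 98.1. The 95% intervals of all 6 stayed above 0, the lowest bound being 0.02 at 200 µM on day 4.

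Id1, at chr2:152736251-152737410 on the plus strand, is the Id gene with the highest RPKM here. It encodes another E protein inhibitor and is a standard readout of BMP signalling. Its RPKM on day 4 was 23.4 in untreated cells and 34.4, 30.7 and 24.6 at 100, 150 and 200 µM, so the lowest dose stood highest. On day 6 it was 23.7 in untreated cells and 23.1, 21.8 and 22.7 with rising dose, a spread of less than 2 RPKM. In the authors' deposited tables Id1 was 1.47-fold higher at 100 µM on day 4 (log2 fold change 0.56 ± 0.16, adjusted p = 0.045). This call was lost when p-values were adjusted over all genes that have one (adjusted p = 0.052). At 150 µM on day 4 the authors' deposited table gave 0.34 ± 0.14 (adjusted p = 0.14), and at 200 µM 0.08 ± 0.25 (adjusted p = 0.91). All 3 values of day 6 in the authors' deposited tables lay between -0.03 and -0.02, with 95% intervals inside -0.44 to 0.37. At 100 µM the nickel effect on Id1 was 0.57 lower on day 6 than on day 4 on the log2 scale (-0.57 ± 0.20, two-sided z test, unadjusted p = 0.0046). This difference did not pass adjustment over 18734 genes (adjusted p = 1.0).

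Id2 followed the pattern of Id1 but passed the threshold nowhere. On day 4 it had 12.9 RPKM in untreated cells and 16.9, 16.5 and 13 with rising dose, and on day 6 10.8 in untreated cells and 11.3, 9.32 and 10.1. Its log2 fold changes in the authors' deposited tables were 0.43 ± 0.20 and 0.39 ± 0.18 at 100 and 150 µM on day 4 (adjusted p = 0.47 and 0.20). At 200 µM on day 4 and on day 6 they lay between -0.13 and 0.08. Id4, the lowest member, had 0.903 RPKM in untreated cells of day 4 and 0.841, 0.901 and 0.802 with rising dose. On day 6 Id4 had 0.688 RPKM in untreated cells and 0.736, 0.390 and 0.893 with rising dose. Its errors in the authors' deposited tables ran from 0.30 to 0.54 on the log2 scale, and its intervals, each of which held 0, together reached from -1.78 to 1.04. A330033J07Rik overlaps Id4 on the other strand.

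Over the 8 groups, Id1 and Id2 were among each other's nearest genes, and Id3 was not among the nearest of either. Likeness was measured as the root mean square difference of log2 RPKM, each gene centred on its own mean, over 7519 genes with at least 5 RPKM in all groups. Id2 was the 9th nearest gene to Id1 (distance 0.126), and Id1 the 3rd nearest to Id2. Id3 was 0.295 from Id1, rank 6216 seen from Id1, whose median distance to all genes was 0.244. Seen from Id3, with a median distance of 0.349, Id1 had rank 1364, Id2 rank 4447 and Bmp4, at 0.243, rank 272. The 3 genes nearest to Id1 were Rtkn, Idi1-ps1, a pseudogene whose reads may be shared with its parent gene, and Det1, at 0.092, 0.106 and 0.114. Those nearest to Id2 were Zfp958 and Sgk1, at 0.114 and 0.121, besides Id1. For Id3 they were Mreg at 0.119, H2-Ke6 at 0.146 and Gm20605 at 0.156. Mreg had 58.3 RPKM in untreated cells of day 6 and 78.6, 87.7 and 98.1 with rising dose. The 8 groups are few and the 3 doses of a day are set against 1 control, so these distances are a description and carry no test.

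The stretches before the start sites of Id3, Id2 and Bmp4 are shown because Id3 and Bmp4 rose and Id2 was not called; RefSeq's table for GRCm38.p6 gave a promoter for 8 of the 10 members used here, and none is shown for Id1 and Smad7. Each line holds the 250 bases before the start site, 5′ to 3′ on the gene's strand, with GGCGCC and CAGAC (or its complement GTCTG), letters known from SMAD binding, in capitals.
Id3, chr4:136143572-136143821, plus strand: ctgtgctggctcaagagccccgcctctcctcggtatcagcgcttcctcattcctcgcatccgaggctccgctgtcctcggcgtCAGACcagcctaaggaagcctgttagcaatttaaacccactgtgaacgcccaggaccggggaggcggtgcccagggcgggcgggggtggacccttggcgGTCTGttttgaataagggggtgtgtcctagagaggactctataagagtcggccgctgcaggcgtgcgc
Id2, chr12:25096093-25096342, minus strand: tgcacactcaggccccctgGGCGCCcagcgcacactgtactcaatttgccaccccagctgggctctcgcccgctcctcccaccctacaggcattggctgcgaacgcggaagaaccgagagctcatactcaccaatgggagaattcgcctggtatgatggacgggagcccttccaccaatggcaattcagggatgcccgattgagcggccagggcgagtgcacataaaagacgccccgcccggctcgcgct
Bmp4, chr14:46390670-46390919, minus strand: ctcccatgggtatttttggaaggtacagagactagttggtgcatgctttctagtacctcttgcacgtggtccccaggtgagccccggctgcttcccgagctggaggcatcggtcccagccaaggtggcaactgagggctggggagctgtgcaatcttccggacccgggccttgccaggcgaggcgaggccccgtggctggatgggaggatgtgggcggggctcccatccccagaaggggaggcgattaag

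The Id3 stretch held CAGAC on either strand 2 times and GGCGCC 0 times. Id2 had GGCGCC 1 time and CAGAC 0 times, and Bmp4 had neither. Among the uncalled members not shown, GGCGCC occurred 1 time each before Bmpr1a, Id4 and 1 start site of Smad5. CAGAC occurred 1 time before another start site of Smad5, and Smad1 and Smad6 had neither. Searched on both strands in 32817 promoters of the same length, CAGAC was present in 42.2% and GGCGCC in 9.6%. The E-box letters CANNTG, at which E proteins bind, were present in 66.2% of all promoters, 3 times before Bmp4, 1 time before Id2 and 0 times before Id3. These matches are letters in a short window, and no binding was measured.

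Bmp4, the ligand of the set, rose on day 4 at the 2 lower doses. Its RPKM was 14.9 in untreated cells and 20.2, 19.7 and 18.6 at 100, 150 and 200 µM on day 4, so all 3 nickel groups lay above their control. On day 6 it was 16.7 in untreated cells and 19.1, 19.7 and 16.4 with rising dose, and the highest dose was level with its control. In the authors' deposited tables Bmp4 was 1.39-fold higher at 100 µM on day 4 (log2 fold change 0.48 ± 0.13, adjusted p = 0.024) and 1.36-fold at 150 µM (0.44 ± 0.12, adjusted p = 0.0042). The remaining 4 values in the authors' deposited tables were 0.39 ± 0.17 at 200 µM on day 4 (adjusted p = 0.14), and 0.20 ± 0.11, 0.32 ± 0.14 and -0.01 ± 0.15 with rising dose on day 6 (adjusted p = 0.43, 0.20 and 0.98). Day 6 minus day 4, the nickel effect on Bmp4 differed by -0.40 ± 0.22 at 200 µM (two-sided z test, unadjusted p = 0.076, adjusted p = 1.0). Bmp4 lies on chromosome 14, at chr14:46383525-46390669 on the minus strand of GRCm38, where Gm15217 and Gm15222 overlap it on the other strand. How the authors' counting used strand is not given in the sources used here.

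Bmpr1a, which encodes a type I receptor for BMP4, had 12.1 RPKM in untreated cells of day 4 and 13.8, 13.9 and 14.5 with rising dose. On day 6 it had 13.3 RPKM in untreated cells and 12.5, 13 and 13.7 with rising dose. The nickel groups of day 4 thus lay above their control and those of day 6 on both sides of it, and no comparison passed. Its log2 fold changes on day 4 in the authors' deposited tables were 0.23 ± 0.11, 0.24 ± 0.09 and 0.32 ± 0.13 (adjusted p = 0.48, 0.091 and 0.091). All its 95% intervals lay between -0.25 and 0.57, which leaves out a change of 1.5-fold or more in either direction.

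The signal carriers Smad1 and Smad5 did not pass in any comparison. Smad5 had the smallest range of the members, its highest group 1.14 times its lowest, with 7.47 RPKM in untreated cells of day 4 and 7.44, 7.84 and 7.24 with rising dose, and 8 in untreated cells of day 6 and 8.27, 7.71 and 7.78. The 95% intervals of Smad5 in the authors' deposited tables lay between folds of 0.804 and 1.22. Smad1 had 3.48 RPKM in untreated cells of day 4 and 3.05, 3.71 and 2.92 with rising dose. On day 6 Smad1 had 3.53 RPKM in untreated cells and 4.11, 4.11 and 4.37 with rising dose. Its log2 fold changes in the authors' deposited tables were 0.22 ± 0.16, 0.31 ± 0.22 and 0.33 ± 0.19 on day 6 (adjusted p = 0.56, 0.52 and 0.28).

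The inhibitory Smad genes, themselves BMP targets, were not called either. Smad7, which damps both BMP and TGF-beta signals, had 25.8 RPKM in untreated cells of day 4 and 24.8, 26.3 and 23.0 with rising dose. On day 6 it had 25.3 RPKM in untreated cells and 28.3, 25.1 and 26.4. Its 95% intervals in the authors' deposited tables lay between folds of 0.788 and 1.24, so a change of Smad7 as large as the day 6 rise of Id3, 1.46-fold or more, lay outside them. Smad6, which acts mainly on BMP signals, had 1.32 RPKM in untreated cells of day 4 and 1.37, 1.47 and 1.09 with rising dose. On day 6 Smad6 had 1.64 RPKM in untreated cells and 1.98, 1.3 and 1.67. Its intervals were wide, with folds of 0.512 to 1.76 in the authors' deposited tables.

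**Figure D2:**
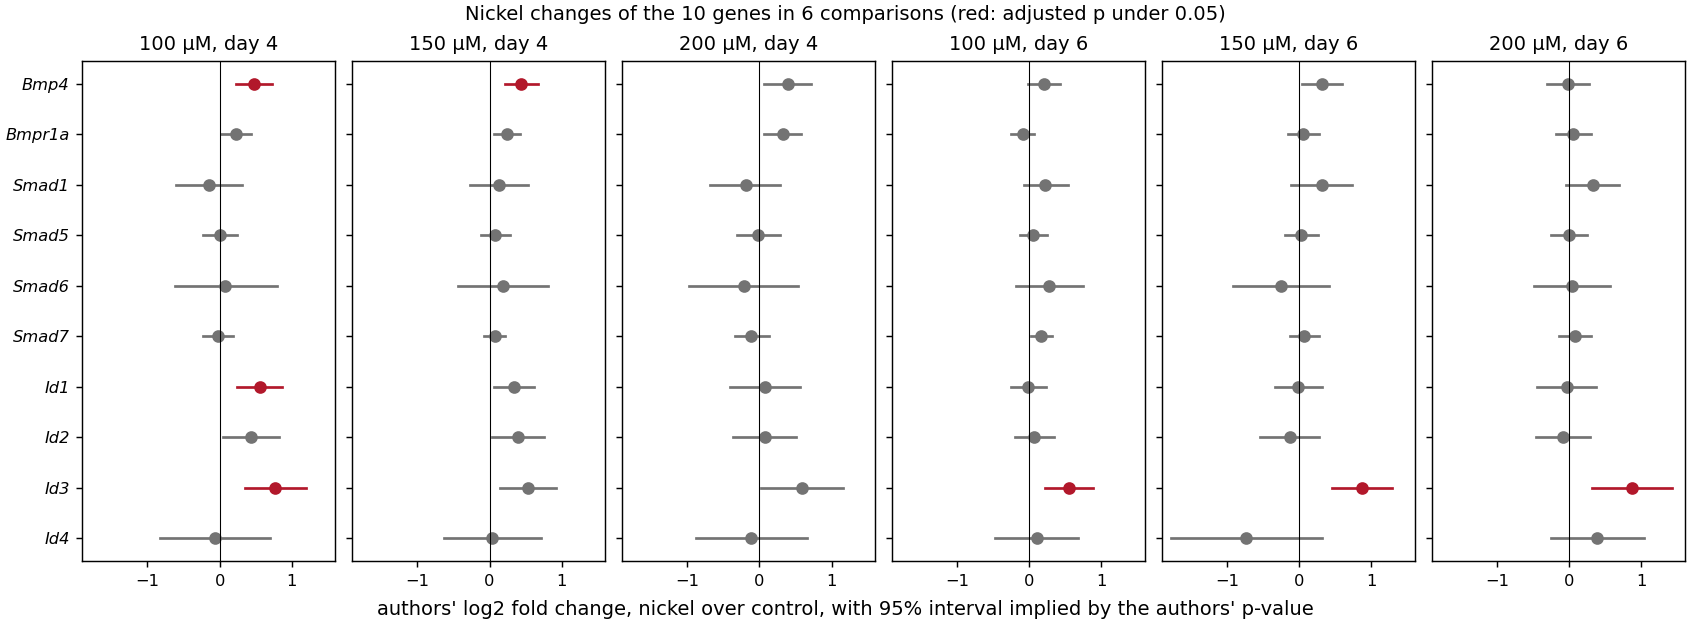
The authors' log2 fold change of nickel over control (x axis) with the 95% interval implied by their p-value, for the 10 genes (rows) in 6 comparisons (panels); red marks an adjusted p-value under 0.05. Id3 lies right of 0 in all 6 panels and is red in 4, Bmp4 is red at 100 and 150 µM on day 4, Id1 at 100 µM on day 4, and the Smad genes are red nowhere.

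No member's nickel effect differed between days or doses past the threshold. The z test of day 6 against day 4 called 0 of 10 members at each dose, with 0.0374%, 0.0745% and 0.0476% of all genes called at 100, 150 and 200 µM. An unadjusted p under 0.05 was reached by 2 members at 100 µM, Id1 and Bmpr1a, and by 0 at 150 and 200 µM. Of all genes, 2.99%, 3.15% and 1.95% reached it at 100, 150 and 200 µM. The test of 200 against 100 µM called 0 of 10 members on day 4 and on day 6. Of all genes it called 0.318% and 0.567%. In it 0 members had an unadjusted p under 0.05, beside 5.02% and 5.54% of all genes. Taking the implied errors as they stand, the error of this dose test is an upper limit, because both doses are set against the same control. Spread between cultures, which those errors may not measure, could make it larger. For Id3 the effect at 200 µM minus that at 100 µM was -0.18 ± 0.36 on day 4 and 0.32 ± 0.33 on day 6, so the test could not tell a flat from a graded response. Whether the effect on Id3 differed from that on Id1 within a comparison was not tested.

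**Figure D3:**
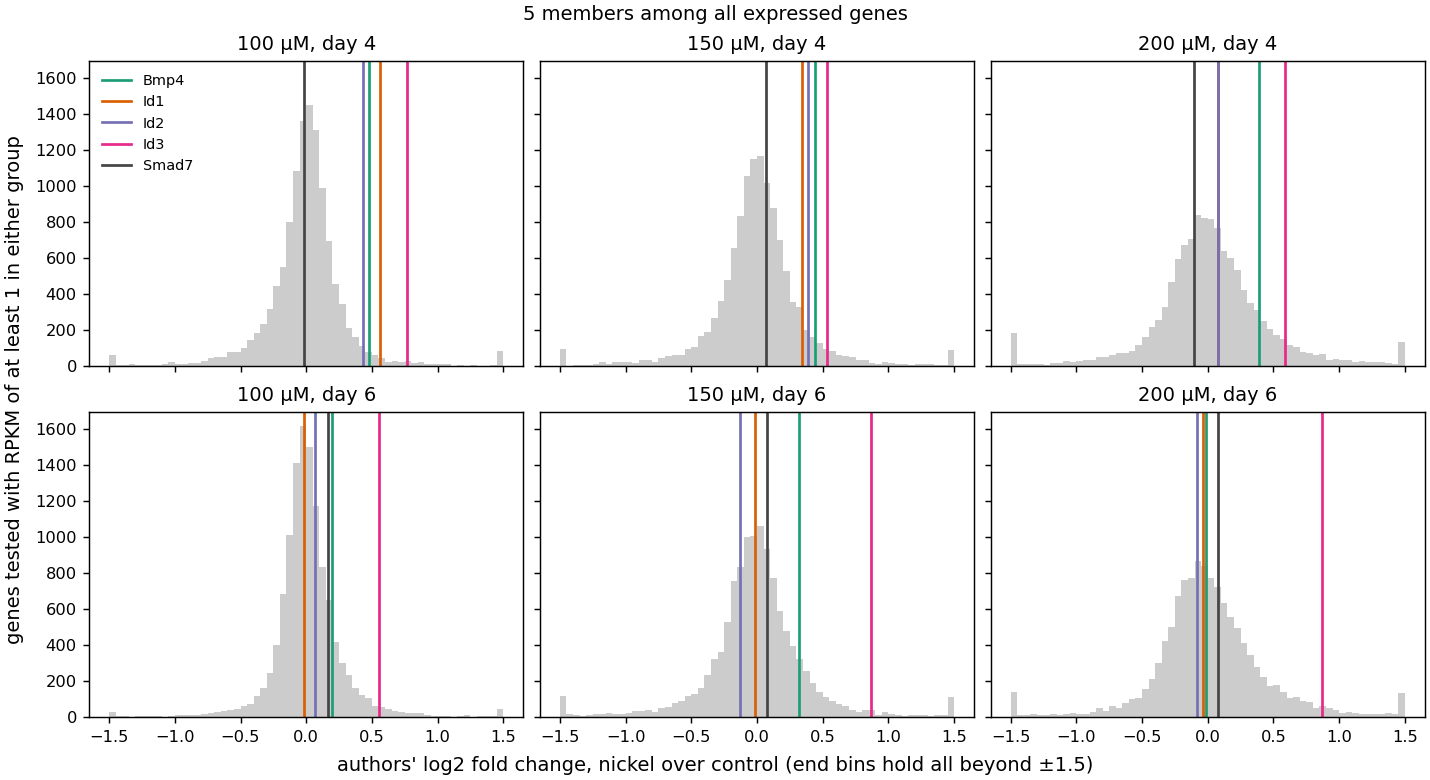
Number of genes (y axis) by the authors' log2 fold change of nickel over control (x axis) for all tested genes with at least 1 RPKM in either group, 1 panel per comparison; coloured lines mark Bmp4, Id1, Id2, Id3 and Smad7. Id3 lies in the right-hand tail in every panel, while Id1 and Id2 are in the right-hand tail at 100 and 150 µM on day 4 and near 0 on day 6.

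Beyond the members, 75 further genes of the pathway or tied to it were read, from ligands to targets. Among them are Stat3 and the E protein genes Tcf3, Tcf4 and Tcf12. Of these, 19 were called in at least 1 comparison, 12 higher and 7 lower, and 0 in both directions. At 100 µM on day 4, 1 of 70 tested rose and 0 fell (median log2 fold change 0.01), and at 100 µM on day 6 1 of 72 rose and 1 fell (median 0.09). At 150 µM 3 of 71 rose and 4 fell on day 4 (median 0.11), and 2 of 72 rose and 2 fell on day 6 (median 0.06). At 200 µM 8 of 71 rose and 4 fell on day 4 (median 0.01), and 8 of 71 rose and 6 fell on day 6 (median 0.22). In percent of those tested, 1.43%, 9.86% and 16.9% of the pathway genes were called with rising dose on day 4, beside 1.04%, 6.75% and 7.92% of all genes tested. On day 6 the shares were 2.78%, 5.56% and 19.7%, beside 2.83%, 4.34% and 9.47%. The lists were chosen with earlier results of these data known. Their shares are therefore a description, and no test of the lists was run.

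Dusp9 rose in all 6 comparisons. It encodes a phosphatase that inactivates ERK, and in mouse embryonic stem cells it is known to be raised by BMP4. Its RPKM was 49.0 in untreated cells of day 4 and 70.3, 82.2 and 75.1 with rising dose, and 64.6 in untreated cells of day 6 and 87.4, 74.1 and 84.6. In the authors' deposited tables its log2 fold changes were 0.56 ± 0.08, 0.79 ± 0.06 and 0.68 ± 0.12 on day 4 (adjusted p = 2.3e-09, 2.7e-31 and 6.6e-07). On day 6 the authors' deposited tables gave 0.44 ± 0.06, 0.29 ± 0.09 and 0.41 ± 0.12 (adjusted p = 4.7e-10, 0.025 and 0.0086). The untreated level itself stood higher on day 6 than on day 4.

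Of the E protein genes, whose products ID proteins bind, Tcf4 fell in 4 of 6 comparisons. Tcf4 had 10 RPKM in untreated cells of day 4 and 8.27, 7.14 and 6.10 with rising dose, and 9.04 in untreated cells of day 6 and 6.80, 7.19 and 5.56. The log2 fold changes of Tcf4 in the authors' deposited tables were -0.24 ± 0.12, -0.45 ± 0.11 and -0.65 ± 0.13 on day 4 (adjusted p = 0.54, 0.00064 and 7.3e-05). On day 6 they were -0.40 ± 0.09, -0.25 ± 0.11 and -0.67 ± 0.13 in the authors' deposited tables (adjusted p = 0.0014, 0.21 and 1.6e-05). Tcf3, the E2A gene and the most abundant of the 3, stayed between 37.6 and 46.0 RPKM in all groups and was called in 0 comparisons, with log2 fold changes of -0.14 to 0.12.

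Receptor genes were called mostly at 200 µM, the dose with the highest share of all genes called on each day. On day 4 at that dose 5 of 10 receptor and co-receptor genes rose and 1 fell, and on day 6 3 rose and 0 fell. Of all genes tested at 200 µM, 7.92% were called on day 4 and 9.47% on day 6. Of those with at least 1 RPKM, the shares were 11.6% and 13.4%. Acvrl1, a type I receptor gene, had 1.63 RPKM at 200 µM against 0.625 in untreated cells of day 4 (log2 fold change 1.45 ± 0.40, adjusted p = 0.0062, in the authors' deposited table). Eng, which encodes the co-receptor endoglin, had 20.2 against 14.2 RPKM on day 4 and 18.1 against 12 on day 6 (log2 fold changes 0.57 ± 0.13 and 0.61 ± 0.15 in the authors' deposited tables). The co-receptor gene Rgmb rose 1.88-fold on day 4 and 1.59-fold on day 6 at 200 µM, and the type II receptor gene Acvr2b 1.21-fold at 150 µM and 1.3-fold at 200 µM on day 4, in the authors' deposited tables. Bmpr1b, at most 0.471 RPKM, fell at 150 and 200 µM on day 4 (-1.58 ± 0.52 and -1.64 ± 0.58 in the authors' deposited tables), the second of them just inside the threshold. Bmpr2, the main type II receptor gene for BMPs, was called in 1 comparison, 1.36-fold higher at 200 µM on day 6 (adjusted p = 0.033 in the authors' deposited table). Acvr1 and Smad4 were called in 0 comparisons, and Smad4, the shared partner of the receptor-activated SMADs, stayed between 10.8 and 13 RPKM.

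Other targets and inhibitors went in both directions. Msx2, a homeobox gene, had 1.36 RPKM at 200 µM against 0.395 in untreated cells of day 4, and 1.37 against 0.622 on day 6 (log2 fold changes 1.85 ± 0.52 and 1.16 ± 0.42 in the authors' deposited tables). Gata2, a zinc finger factor gene, fell at 150 µM on day 4 (0.379 against 1.47 RPKM) and at 200 µM on day 6 (0.812 against 1.56 RPKM), per the authors' deposited tables. Both genes are low, and marker lists of several cell types differed at the same dose, beside these genes and beside Id3. The summed RPKM of the 6 mesoderm and streak markers was 3.91 at 200 µM against 2.27 in untreated cells of day 4, and 3.61 against 2 on day 6, where 1 of the 6 was called on each day and T stayed at or under 0.428 RPKM. The 5 trophectoderm markers summed to 8.27 against 7.59 on day 4 and 12.5 against 8.78 on day 6, with 1 of 5 called on each day and Cdx2 and Elf5 at or near 0. The 5 fibroblast markers summed to 4.79 against 11.3 on day 4 and 5.68 against 8 on day 6, with 1 of 5 called on each day, and most of the sum was Thy1, at 4.15 against 10.8 RPKM on day 4. The 6 primitive endoderm markers summed to 6.98 against 5.99 on day 4, with 1 called, and to 5.37 against 5.4 on day 6, with 2 called. On day 6 these markers went in both directions. Gata4 had 2.24 against 0.947 RPKM and Gata6 0.883 against 0.647. Dab2 had 1.31 against 2.41, Pdgfra 0.457 against 0.762, Sox7 0.28 against 0.426 and Sox17 0.203 against 0.21. The 5 neural markers summed to 28.6 against 32.3 on day 4 and 32.2 against 40.1 on day 6, with 1 called on each day. Most of each sum was Tubb3, which lay lower, at 24.8 against 29.6 on day 4 and 28.6 against 37.1 on day 6. Pax6 lay higher, at 1.48 against 0.585 on day 4 and 1.08 against 0.534 on day 6. Sox1 had 0.924 against 0.756 on day 4 and 0.966 against 0.98 on day 6. Nes lay slightly above its control on both days, and Neurog2 was at or near 0. The 3 primed epiblast markers summed to 26.9 against 28.6 on day 4, with 0 called, and to 26.7 against 20 on day 6, with 1 called. Of the 8 stem cell markers, 2 to 4 were called in each of the 6 comparisons, and these markers did not all go the same way. At 200 µM Nanog had 308 against 168 RPKM on day 4 and 345 against 195 on day 6. Esrrb lay lower, at 153 against 191 on day 4 and 175 against 202 on day 6. Dppa4 lay lower too, at 70.5 against 73.0 and 62.5 against 69.8. The part of these lists in the results was not tested.

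Tbx3, a T-box gene of the naive state, rose on day 6 to 40.5 RPKM at 150 µM and 45.8 at 200 µM, against 32.0 in untreated cells. Junb, an AP-1 gene, fell on day 6 to 8.34 and 8.66 RPKM at these doses, against 14.3. Ski, which encodes a SMAD corepressor, was 1.35-fold and 1.28-fold lower there in the authors' deposited tables. Htra1, which encodes a secreted protease that can block BMP signals, fell at 200 µM on both days (-0.76 ± 0.20 on day 4 and -0.76 ± 0.22 on day 6 in the authors' deposited tables). Stat3, the effector of LIF, fell at 150 and 200 µM on day 4 and at 200 µM on day 6, by 0.29, 0.35 and 0.32 on the log2 scale in the authors' deposited tables.

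**Figure D4:**
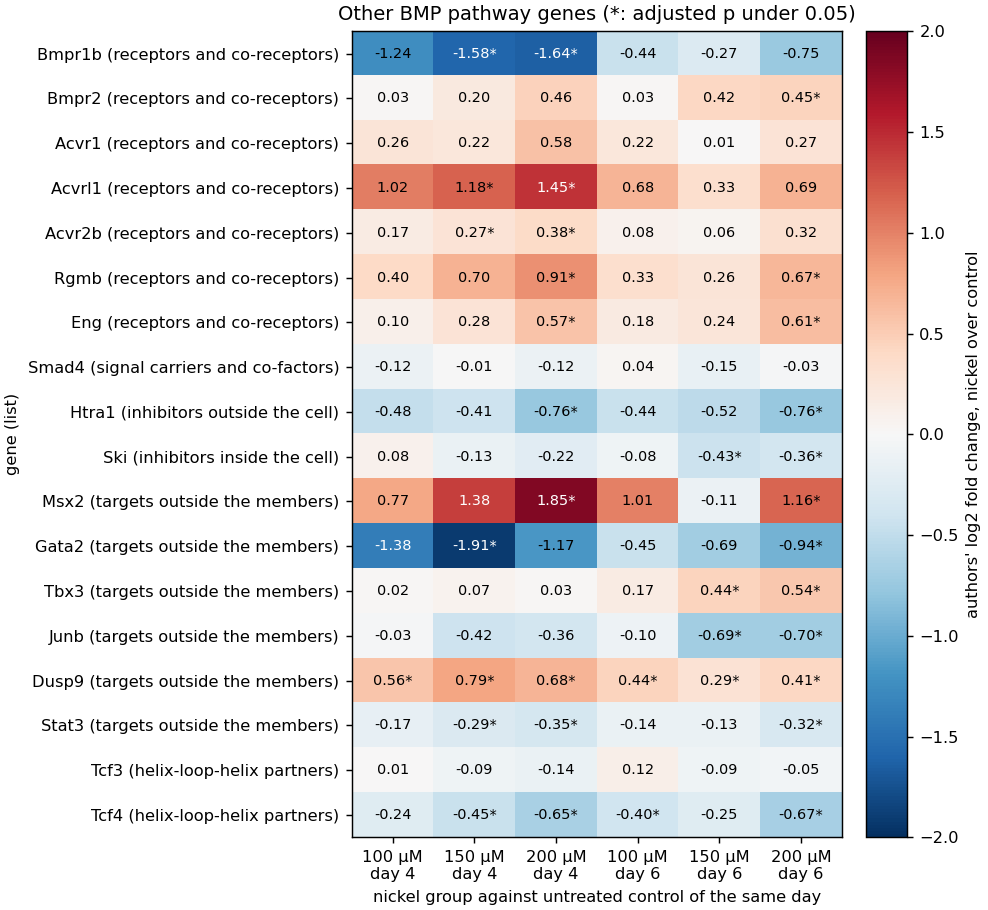
The authors' log2 fold change of nickel over control (colour and number) for 18 further genes of the BMP pathway or tied to it. Rows are genes with their list, columns the 6 comparisons, and a star marks an adjusted p-value under 0.05. Stat3, which stands in the list of targets, is the effector of LIF, and Tcf3 and Tcf4 are E protein genes. Dusp9 is starred in all 6 columns and Tcf4, with negative values, in 4. Most stars of the receptor genes are in the 200 µM columns, the dose with the highest share of all genes called.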

How the data were processed

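Per the labels, RNA of E14Tg2A cells was sequenced with a stranded mRNA kit. The submitters' processing notes name STAR, DESeq2 and GRCm38; roles, settings and versions are not given in these sources. The 6 tables the authors deposited hold, per the file headers, RPKM by group, log2 fold changes and p-values, raw and adjusted. Lacking values per library, genes were not tested anew against control. A gene was taken as untested where its p-value was 1 and its fold change on the log2 scale 0. Standard errors were implied by fold change and p-value, taken as normal. Differences between days and doses used two-sided z tests, Benjamini-Hochberg adjusted over all genes tested (Python 3.11.15, scipy 1.17.1). Only the test between days was run on simulated data, for expressed genes. The simulation drew normal errors of the implied size, so it did not check those errors. Depths were found from steps in low RPKM values of single-exon genes (98.1 to 99.6% of values on the steps within 0.8%, 13.3 to 20.8% by chance). Reads per gene were estimated from RPKM, mean depth and the GENCODE M21 length of transcripts matched to the listed RefSeq IDs. Named pathway genes were called in at least 2 comparisons, or were Smad4, Bmpr2, Acvr1, Tcf3 or Dusp9; the 3 genes nearest in profile were named for Id1, Id2 and Id3. The members and lists were chosen with earlier results of these data known.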

Additional observations from a re-analysis of the deposited data

Results flagged for a closer look

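The effect of 150 µM nickel on Dusp9 differed between days. The log2 fold change was 0.29 on day 6 and 0.79 on day 4, a difference of -0.50 ± 0.11 by the two-sided z test (unadjusted p = 5e-06, adjusted p = 0.0086 over 18784 genes, of which 14 were called). At 100 and 200 µM the differences were -0.12 ± 0.10 and -0.27 ± 0.17 and did not pass (adjusted p = 1.0 each). The 2 libraries at 150 µM on day 6 were the most uneven pair in depth, at 34.0 and 60.8 M reads, and the part of this in the result was not tested.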

How the results depend on the processing

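No paired analysis was possible because the tables hold 1 value per group and none per library; leaving out a replicate could not be run for the same reason. At an adjusted p under 0.01, 0 members were called at 100 µM on either day and 0 at 200 µM on day 6. At an adjusted p under 0.1, 3 members were called at 150 µM on day 4 (Bmp4, Bmpr1a and Id3), 1 at 200 µM on day 4 (Bmpr1a), and 11 other pathway genes at 150 µM on day 4, against 7. With a log2 fold change of at least 0.5 required, 0 members were called at 150 µM on day 4. Id1 at 100 µM on day 4 lost its call when adjusted over all genes with a p-value (adjusted p = 0.052) and with fold changes centred on the median of expressed genes (0.051), a shift of 0.008. The remaining 172 of 174 adjusted p-values of members kept their side of the threshold under adjustment over other sets of genes and centring. No called fold change reversed. Of 60 member fold changes, 5 uncalled ones of at most 0.07 had the other sign as RPKM ratios with a pseudocount of 0.1 or 1 (Smad5 at 100 µM and Id4 at 150 µM on day 4, and Bmpr1a, Smad5 and Smad7 at 150 µM on day 6), and 3 of at most 0.01 in size after centring. Counts of day and dose differences stayed at 0 members under the alternatives run. Id4 and Smad6 had the fewest estimated reads per library of the members, 71 to 238 and 169 to 402. They also had the largest errors, up to 0.54 and 0.38 on the log2 scale. The part of depth in these errors was not tested.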
